A study of Mus musculus with 9 samples.

Results

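The arrays described here hold RNA from the border of an untreated infarct. They are the 3 arrays labelled as injected with saline, of 9 arrays in the series. The tissue is the peri-infarct region, the strip of heart next to the scar, and the labels call the 3 samples biological replicates. The hearts came from female SCID mice, aged 80 to 100 days, which have no working T or B lymphocytes. All had an infarct made by ligating the left anterior descending artery of the heart, received saline at injection, and gave tissue 4 weeks later, after the core of the infarct and the remote heart had been cut away. The 6 other arrays come from infarcted mice of the same strain given cardiomyocytes derived from induced pluripotent stem cells (iCM) or the exosomes of such cells (iCM-Ex), and no treatment is compared here. Total RNA was measured on Clariom S arrays, and 19505 genes with 1 symbol were ranked by their mean log2 signal.

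Weeks after an infarct, surviving cardiomyocytes at the border lie beside a collagen scar laid down by fibroblasts. Cardiomyocytes contract through the sarcomere and draw their energy mainly from the oxidation of fatty acids in mitochondria. Natriuretic peptides are hormones that stretched heart muscle releases, and macrophages clear dead cells and persist in the healing scar. The brightness of a gene on an array depends on its probes as well as on its RNA, so the ranks below describe signal and not the abundance of one transcript against another. In whole tissue, fewer cells of a type and less RNA per cell cannot be told apart.

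One array went against its label. Eif2s3y, a translation factor gene on the Y chromosome, had log2 signals of 3.46, 3.43 and 10.63 on saline replicates 1, 2 and 3, although the mice were labelled female. Uty, a Y-linked histone demethylase gene, gave 4.92, 4.39 and 9.71, and Kdm5d, another, gave 3.58, 3.59 and 6.79. Saline replicate 3 stood above the other two at these 3 genes. The X-linked partners of Eif2s3y and Kdm5d had no such gap, with 11.90, 12.63 and 12.04 for Eif2s3x and 8.45, 9.37 and 8.04 for Kdm5c. Kdm6a, the X-linked partner of Uty, read 11.67, 12.22 and 11.06. Replicate 3 was the lowest array at Kdm5c and Kdm6a and lay between the others at Eif2s3x. Of the 6 other arrays, 3 also had Eif2s3y above 10. The library labelled saline replicate 3 is therefore set beside the other two in each result below.

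The median gene signals of the 3 arrays were 5.44, 5.66 and 5.65, and the upper quartiles 7.80, 8.40 and 8.42. Replicate 1 was the lowest by both. Across genes, which are not independent replicates, Pearson's r was 0.962 between replicates 1 and 2, 0.943 between 1 and 3 and 0.978 between 2 and 3. Replicate 1 was thus the array least like the other two by this measure. It differed by more than 1 log2 unit from replicate 2 at 4321 genes and from replicate 3 at 5310 genes, against 1867 genes between replicates 2 and 3. With 3 arrays, their number sets how precise each value is.

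A gene was counted as above the controls where its signal exceeded the 95th percentile of the 5222 negative control probe sets on the same array. That level was 8.59, 9.08 and 8.74 log2 units on replicates 1, 2 and 3. By this rule 3783 genes (19.4%) stood above the controls on replicate 1, 3855 (19.8%) on replicate 2 and 4370 (22.4%) on replicate 3. On all 3 arrays 3338 genes (17.1%) did so, and 7618 genes (39.1%) lay below the median negative control on all 3. That median was 5.07, 5.48 and 5.32, near the median gene. Above the controls on at least 1 array were 4742 genes. Over these the median difference from replicate 1 was 0.46 for replicate 2 and 0.48 for replicate 3. Replicate 1 was the lowest array for 60.8% of them. Some negative controls were bright, and at their 99th percentile the count over all 3 arrays was 569 genes. That percentile was 12.76, 12.89 and 12.64, against 6.26, 6.27 and 6.27 for the brightest background probe set. A gene near or below the controls' level is thus not shown to lack RNA.

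Of the 100 brightest genes, 65 belonged to one of the 52 gene lists used here, against 3.22% of all genes, and the lists were written for this tissue with earlier results in view. Of the 100, 11 were cardiomyocyte markers, 7 belonged to ATP synthase and transport, 6 to complexes III and IV, 7 to protein folding and 5 to fibrillar collagen and matrix. At the very top stood Dcn, which encodes the matrix proteoglycan decorin, and Nppa, which encodes atrial natriuretic peptide. Both read 19.88, 19.93 and 19.93, the upper limit of the scale on each array, so their levels are lower bounds and have no order. Within 0.01 of the limit on at least 1 array were 5 genes. This count may miss genes whose signal was limited. Myoz2 and Eef1a1 read the same on replicates 2 and 3 and 0.049 less on replicate 1, the step seen at Dcn and Nppa.

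Contraction and calcium handling were represented among the 40 brightest genes by sarcomere and sarcoplasmic reticulum genes. Mb, which encodes the oxygen store myoglobin, read 19.88, 19.93 and 19.90. Tnnt2, the cardiac troponin T gene, read 19.76, 19.80 and 19.76, and its SD of 0.02 was the smallest among the 500 brightest genes. Myoz2, a Z-disc protein gene, read 19.64, 19.68 and 19.68. The 3 arrays were nearly level at these genes, and the scale's upper limit leaves little room for spread there. Myl2, the ventricular myosin light chain gene, read 19.69, 19.73 and 19.05. Atp2a2, the calcium pump of the sarcoplasmic reticulum, read 19.77, 19.75 and 18.42, and Pln, its inhibitor phospholamban, read 19.27, 19.34 and 19.10. Replicate 3 was the lowest array for each of these 3 genes. Tpm1, a tropomyosin gene of the thin filament, read 18.84, 19.86 and 19.63, with replicate 1 the lowest. Pdlim5, a Z-disc adaptor gene, read 19.21, 18.91 and 18.31, and Asph, whose locus also encodes junctin of the calcium release unit, read 19.27, 18.95 and 18.45. Both were highest on replicate 1 and lowest on replicate 3.

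Mitochondrial genes made up another block. Uqcrb of complex III read 19.88, 19.91 and 19.75, and Cox7c of complex IV read 19.66, 19.90 and 19.34. The ATP synthase subunit gene Atp5a1 read 19.77, 19.80 and 19.59. Atp5b, Atp5h, Cox6c and Cycs, the last of which encodes cytochrome c, also ranked among the 40 brightest, and each had its highest signal on replicate 1 or 2. Slc25a4, the carrier that exchanges ADP and ATP across the inner membrane, read 18.69, 18.74 and 18.74. Fabp3, the fatty acid binding protein of heart muscle, read 19.76, 19.85 and 19.85, and the glycolytic gene Gapdh read 18.61, 18.97 and 18.97. Of these last 3 genes, Gapdh had the widest range over the arrays, at 0.36 log2 units.

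Genes of matrix, stress and housekeeping completed the 40. Sparc, a collagen-binding matrix protein gene, read 18.19, 19.73 and 19.81, and its SD of 0.91 was the largest among the 40. Actb, the cytoplasmic actin gene, read 17.96, 18.89 and 19.61. Mgp, an inhibitor of calcification, read 18.16, 18.98 and 18.58, and Igfbp7, a secreted growth factor binding protein, read 19.32, 19.74 and 19.93. Replicate 1 was the lowest array at all of these 4 genes. Ankrd1, a stress-responsive protein of the sarcomere and the nucleus, read 19.86, 19.71 and 19.91. The remainder were the ferritin gene Fth1, the secreted glutathione peroxidase gene Gpx3, the chaperone genes Hspa5 and Hspb7, the secreted chaperone gene Clu, B2m of the class I antigen-presenting complex, the elongation factor gene Eef1a1, the ribosomal gene Rps6, and Serinc3, Cd81, Itm2b, Ccng1 and Ost4. Their SDs ran from 0.03 for Serinc3 and Eef1a1 to 0.59 for Ost4. BC005537, a gene with only a clone name, was also in the set.

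**Figure D1:**
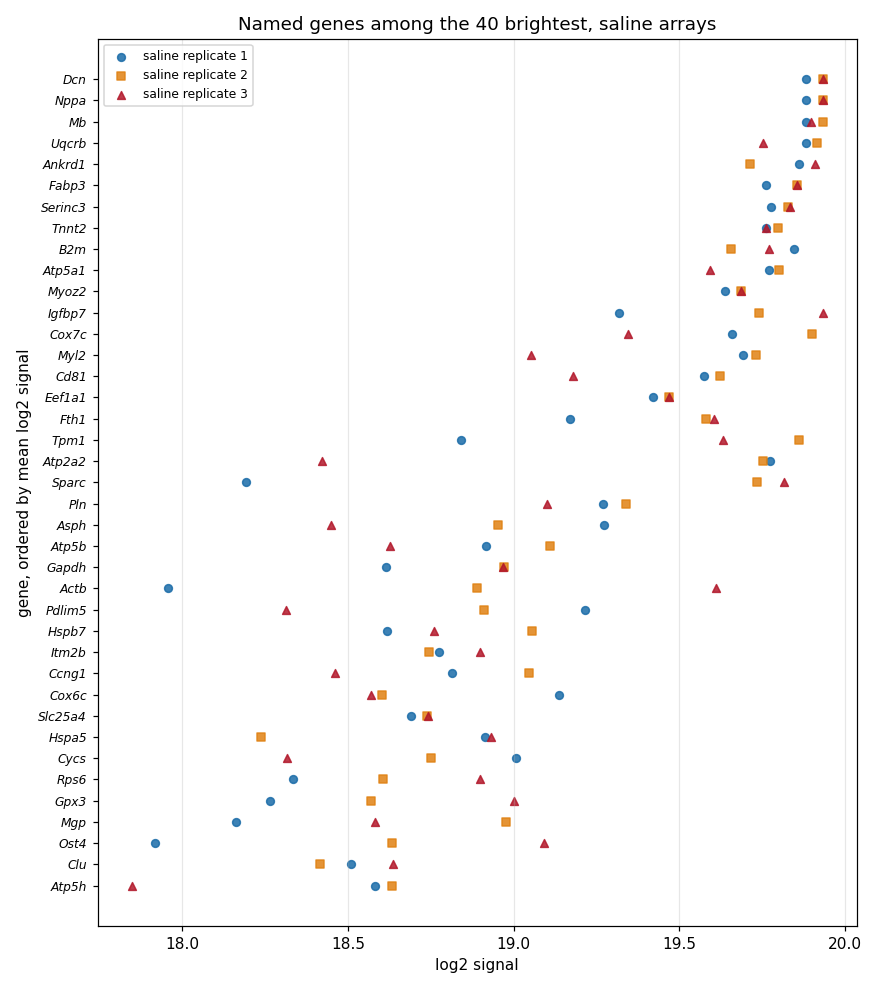
Log2 signal (horizontal axis) of the 39 brightest genes with a usable name (vertical axis, ordered by mean) on each of the 3 saline arrays, 1 point per array. Genes at the top crowd the upper limit of 19.88 to 19.93, while Sparc and Actb are lowest on replicate 1 and Atp2a2 on replicate 3.

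The edge of the ranking was not a step. Atp5h, the 40th gene, had a mean of 18.35 and Ogn, the 41st, also 18.35, and Itgb1 and Lyz2 on either side of the 100th place had 16.83 and 16.82. None of the 40 brightest had an SD above 1, nor did 90 of the 100 brightest. The other 10, named after their values were seen, included Apoe, a lipid carrier gene also made by macrophages, at 17.11, 18.61 and 19.14. Cst3, a protease inhibitor gene, read 16.48, 19.10 and 19.09, and Tmsb4x, an actin-binding peptide gene, read 15.24, 17.83 and 18.45. These 3 were lowest on replicate 1. Myh7, the slow myosin that stressed mouse ventricle expresses, read 17.74, 18.70 and 15.93 and was lowest on replicate 3.

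The promoter of Nppa is shown because this hormone gene reached the upper limit on all 3 arrays. In the RefSeq sequence of build GRCm38.p6 the stretch at chr4:148000683-148000721 (plus strand) ends just before the annotated start and holds the letters TATAAA, in capitals, from 9 bases before that start.
Nppa: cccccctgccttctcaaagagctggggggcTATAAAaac
The letters TATAAA, sought on both strands from 250 bases before to 50 bases after each start, were found at 21 of 101 starts of the 100 brightest genes (20.8%) and at 2361 of 19143 starts of all genes (12.3%). Starts were on hand for 76 of the 100 genes, and a match is a description of letters, not of a working site.

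Markers of heart muscle, the labelled tissue, were bright on each array. All 20 cardiomyocyte markers stood above the controls on all 3 arrays, against 17.1% of all genes, and 17 of them ranked among the 500 brightest genes, a set that holds 2.56% of all genes. The mean of the list was 16.93, 16.88 and 16.03 log2 units. Myh6, the main myosin of the adult mouse ventricle, read 16.65, 17.11 and 15.90, and Tnni3, cardiac troponin I, read 16.37, 16.57 and 15.21. Ryr2, the calcium release channel, read 12.88, 12.20 and 10.46. Replicate 3 was the lowest array for 14 of the 20 markers, against 28.2% of the 4742 genes above the controls on at least 1 array. Of 6 atrial markers, Nppa was above the controls, and Myl7, Myl4, Sln, Bmp10 and Stard10 were not above them on any array. The muscle sampled thus carried ventricular markers together with a bright Nppa, and the fetal or stress genes Nppb (15.60, 15.89 and 16.13) and Acta1 (16.60, 15.69 and 17.66) were bright as well.

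Fibroblast markers came next among the cell type lists by the share above the controls on all 3 arrays, at 12 of 15. Of 17 markers of activated fibroblasts and scar matrix 10 were above them too, against 17.1% of all genes. Col3a1, a fibrillar collagen of scars, read 15.69, 18.51 and 17.52, and Col1a1, the main scar collagen, read 10.56, 14.39 and 12.63. Postn, the matrix protein periostin of activated fibroblasts, read 16.34, 17.30 and 16.88, and Fn1, fibronectin, read 13.73, 16.15 and 15.55. Replicate 1 was the lowest array for 15 of the 15 fibroblast markers, and replicate 2 the highest for 13 of the 17 scar markers. Over the 4742 genes above the controls on at least 1 array these shares were 60.8% and 32.6%. Tnc, tenascin C, read 8.75, 10.14 and 7.76, and Thbs4, a thrombospondin, read 10.35, 11.56 and 8.16. At these 2 genes replicate 3 was the lowest. The fibroblast list averaged 12.70, 14.18 and 14.16 and the scar list 10.01, 11.69 and 11.13.

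Of 14 endothelial markers 9 stood above the controls on all 3 arrays, against 17.1% of all genes, and the list averaged 10.63, 11.05 and 11.37. Replicate 1 was the lowest array for 11 of the 14, against 60.8% of the 4742 genes. The median member was 0.46 higher on replicate 3 than on replicate 1, near the 0.48 over those 4742 genes. Cdh5, the cadherin of endothelial junctions, read 13.52, 13.26 and 13.47, and Kdr, a receptor of vascular growth factor, read 12.58, 12.66 and 12.70. Fabp4, the fatty acid carrier of capillaries, read 15.35, 15.66 and 15.72. Of these 3 genes, Fabp4 had the widest range over the arrays, at 0.37 log2 units. Rgs5 of pericytes read 14.59, 14.04 and 14.42, and 4 of 8 pericyte markers were above the controls on all 3 arrays. So were 4 of 9 smooth muscle markers, 2 of which, Acta2 (15.54, 16.00 and 16.84) and Des (16.09, 16.19 and 15.45), are also made by activated fibroblasts and by cardiomyocytes respectively. Of 7 lymphatic markers 3 were above, with Ccl21a, the chemokine of lymphatic vessels, at 12.73, 13.08 and 14.40. Of 5 endocardial markers 1, Npr3, was above, which is near the 17.1% of all genes, so nothing is read from that count. Plvap, a protein of the openings in the vessel wall that is listed with the endocardial markers, read 6.22, 8.38 and 10.23, the widest spread among the markers of this paragraph's lists.

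Macrophage and monocyte markers were above the controls for 6 of 16 genes on replicate 1, 7 on replicate 2 and 15 on replicate 3, against 19.4%, 19.8% and 22.4% of all genes. The 6 of replicate 1 were above on all 3 arrays. Lyz2, the lysozyme of myeloid cells, read 15.15, 16.76 and 18.55, and Mrc1, the mannose receptor, read 10.87, 13.25 and 14.47. Csf1r, the receptor for the growth factor of macrophages, read 9.49, 11.38 and 13.01. All 16 markers were lowest on replicate 1 and highest on replicate 3, against 39.1% of the 4742 genes. Ccr2, the receptor by which blood monocytes enter tissue, read 6.56, 7.98 and 9.39 and was above the controls on replicate 3. Trem2, a lipid receptor of scar macrophages, read 5.84, 7.69 and 10.58, and Cd163, a scavenger receptor of resident macrophages, read 5.62, 6.12 and 6.54, below the controls' level on each array. The list mean was 7.93, 9.41 and 11.28. The median member differed by 3.56 between replicates 3 and 1, against 0.13 over all genes and 0.48 over the 4742. Without replicate 3 the spread of the list mean was 1.49 log2 units, and with it 3.35.

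Lymphocyte markers were near the controls on the arrays of these SCID mice. None of 10 T cell, 9 B cell or 9 natural killer markers was above the controls on any array, and none passed the 75th percentile of the controls on all 3 either. Cd3e of the T cell receptor complex read 3.62, 4.06 and 3.71, and Cd79a of the B cell receptor read 3.26, 3.48 and 3.44. Ncr1, a natural killer receptor, read 5.73, 3.93 and 4.55. Below the median negative control on all 3 arrays lay 6 of the 10 T cell, 7 of the 9 B cell and 4 of the 9 natural killer markers, against 39.1% of all genes. Natural killer cells, unlike T and B cells, are not lost in the original SCID mutant.

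Other blood and neighbouring cell types were near the controls. Of 8 dendritic cell markers 1, H2-Aa, was above on all 3 arrays, against 17.1% of all genes. This class II gene, at 11.23, 12.49 and 13.49, is also made by macrophages. None of 10 neutrophil markers was above on all 3, and Csf3r, which monocytes also carry, read 4.53, 6.55 and 8.84. No mast cell, erythroid, platelet, adipocyte, alveolar lung, fast skeletal muscle, hepatocyte or proliferating cell marker was above the controls on any array. The erythroid list is thin, with 3 of 9 markers measured and no haemoglobin gene among them. Of 10 Schwann cell and neuron markers 1 was above, the sodium channel gene Scn7a at 11.91, 13.18 and 13.43. Upk3b of the mesothelium, the cell layer on the heart's surface, read 7.36, 10.60 and 12.43, with the other 7 markers of that layer below the controls on all 3 arrays. Mki67, the proliferation marker, read 6.88, 7.77 and 8.28.

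**Figure D2:**
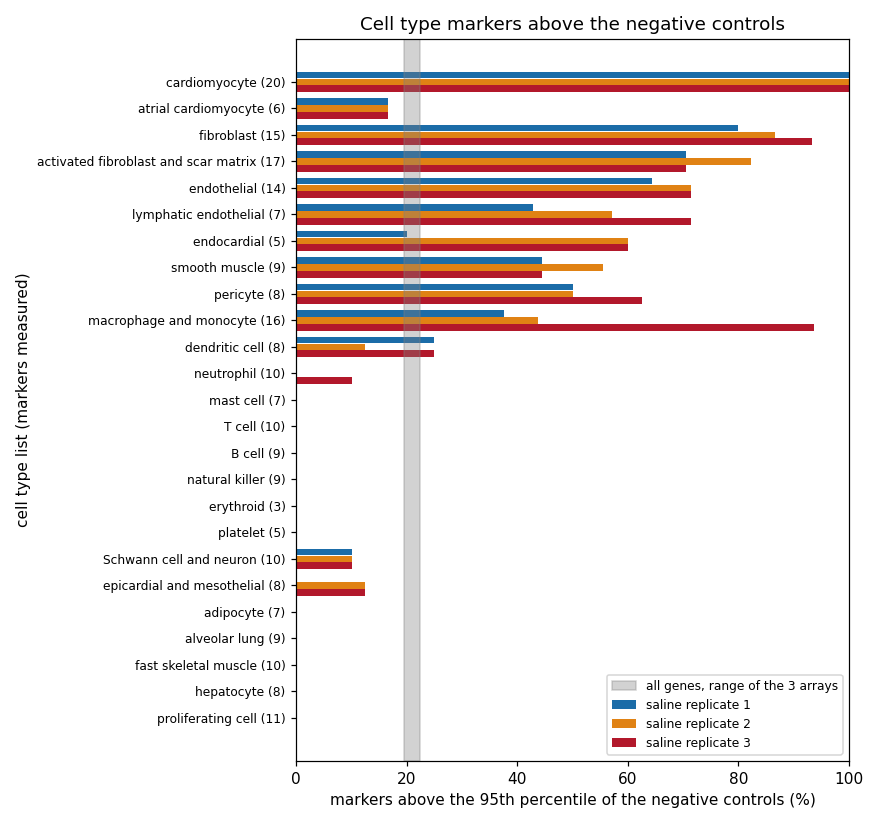
Percentage of each list's measured markers (number in brackets) above the 95th percentile of the negative controls, 1 bar per saline array, with the grey band at the 19.4% to 22.4% of all genes that passed. Cardiomyocyte markers reach 100% on every array, the macrophage list reaches 15 of 16 on replicate 3 against 6 and 7 on the other two, and T cell, B cell and natural killer lists have no bar.

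Energy metabolism differed in level between the arrays. The citrate cycle list averaged 13.86, 13.49 and 12.60 log2 units, and 12 of its 18 members were highest on replicate 1 and lowest on replicate 3. Pdhb, a subunit of the enzyme that feeds pyruvate into the cycle, read 17.64, 16.80 and 15.01, and Idh2, the mitochondrial isocitrate dehydrogenase, read 16.11, 15.17 and 13.06. Complex I of the respiratory chain averaged 13.92, 13.46 and 12.90, with 15 of 19 members in the same order, among them Ndufa10 at 14.70, 13.64 and 12.00. Over the 4742 genes above the controls on at least 1 array, 17.3% had that order. All 20 members of complexes III and IV were above the controls on all 3 arrays, against 17.1% of all genes. Their mean was 15.47, 15.24 and 14.91, and 11 were highest on replicate 1 and lowest on replicate 3. An exception was Cox8a, a complex IV subunit, at 13.36, 14.24 and 15.84.

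Fatty acid use averaged 13.30, 12.83 and 12.18, with 13 of 18 members highest on replicate 1 and lowest on replicate 3. Hadha, a subunit of the enzyme complex of fatty acid oxidation, read 17.38, 16.97 and 16.05, and Etfdh, which passes its electrons to the respiratory chain, read 15.92, 14.95 and 13.62. ATP synthase and transport genes averaged 15.36, 15.20 and 14.88. None of the 19 had an SD above 1, against 8.35% of all genes and 75 of the 500 brightest. With 19 genes, some of them near the upper limit, nothing is read from that count. The calcium cycling list averaged 11.91, 11.82 and 10.88. Its most variable member, Hrc, a calcium binding protein of the sarcoplasmic reticulum, read 12.83, 11.39 and 9.35. Corin, the protease that activates atrial natriuretic peptide, read 14.29, 13.04 and 11.19, while Nppa itself was at the upper limit on all 3 arrays.

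Most ribosomal, lysosomal and cytoskeletal genes listed had the other order, lowest on replicate 1 and highest on replicate 3. The large ribosomal subunit averaged 13.33, 13.90 and 14.45, and 18 of 31 members had that order, as had 16 of 22 of the small subunit, 14 of 19 lysosomal and 12 of 15 cytoskeletal genes. Over the 4742 genes, 39.1% had it. Rplp1, an acidic stalk protein gene, read 15.58, 16.54 and 17.50, and Rpl31 read 14.28, 15.63 and 16.77. Ribosomal genes have many processed copies in the genome, and how far their probes tell them apart was not tested. The lysosome list averaged 11.45, 12.29 and 12.73, with Ctsb, a cathepsin, at 16.63, 17.81 and 18.33, and the cytoskeleton list averaged 12.93, 13.78 and 14.46, with Vim, the filament protein of mesenchymal cells, at 15.64, 16.93 and 17.56. Fibrillar collagen and matrix genes averaged 11.05, 12.75 and 12.24, and differed from these lists in that 18 of 24 were highest on replicate 2 and 6 had the order above. Of the 4742 genes 32.6% were highest on replicate 2.

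Complement and acute phase genes had the widest range over the arrays after the macrophage list, Y-linked genes aside. They averaged 10.43, 12.03 and 13.69, and replicate 3 was the highest array for all 11 members, against 44.9% of the 4742 genes. Among the 11, 3 (C1qa, C1qb and C1qc) are macrophage markers too. C4b, an early complement component, read 8.35, 12.18 and 12.29, and Serping1, the inhibitor of the first complement step, read 16.27, 17.02 and 17.75. Clu and Cp, which encode clusterin and ceruloplasmin, were nearly level, with Cp at 14.56, 14.45 and 14.71. Of 18 class I and interferon genes 3 were above the controls on all 3 arrays, near the 17.1% of all genes. On replicates 1, 2 and 3 singly 6, 3 and 9 were above, against 19.4%, 19.8% and 22.4% of all genes. Replicate 3 was the highest array for 13 of the 18, against 44.9% of the 4742 genes. Irf7, an interferon regulator, read 4.55, 5.43 and 8.63, below the controls' level on each array. Of 20 immediate early genes 2 were above on all 3, Klf6 and Dusp1, the latter at 14.19, 13.98 and 12.81. Of 13 clock genes 4 were, among them Dbp, an output gene of the clock, at 15.21, 15.77 and 15.19. The cardiomyocyte, macrophage, fibroblast, collagen, ribosomal, citrate cycle and respiratory chain lists kept the same highest and lowest array after quantile normalisation and after centring each array on its median.

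**Figure D3:**
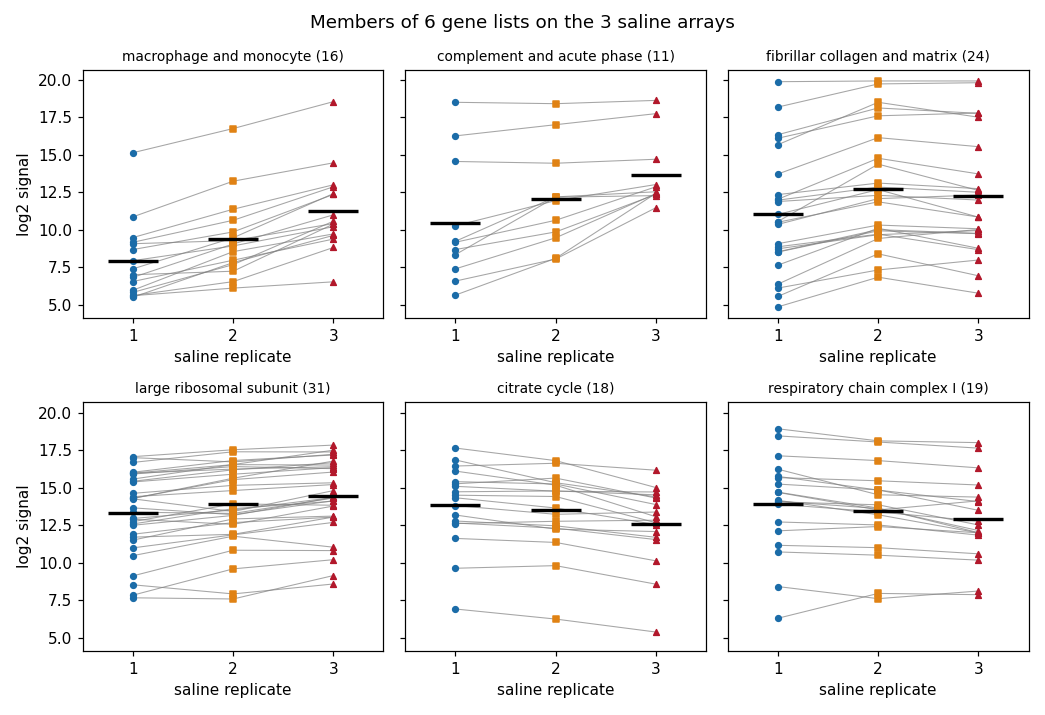
Log2 signal of each measured member (points) of 6 lists on saline replicates 1, 2 and 3, with black bars at the list means and grey lines that join the same gene. The macrophage mean is 7.93, 9.41 and 11.28 and the citrate cycle mean 13.86, 13.49 and 12.60, while the collagen and matrix list is highest on replicate 2.

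Spread was measured as the SD over the 3 arrays among the 4742 genes above the controls on at least 1 of them. An SD above 1 was found for 816 of these (17.2%), and for 1628 of all genes (8.35%). Without replicate 1 the first count was 365, without replicate 2 it was 1342 and without replicate 3 it was 551. Among the 100 most variable genes replicate 3 was the highest array for 89 and replicate 1 the lowest for 86, against 44.9% and 60.8% of the 4742 genes. Only 25 of the 100 were also among the 100 most variable when replicate 3 was left out, and 61 when replicate 1 was. Of the 100, 83 were lowest on replicate 1 and highest on replicate 3, against 39.1% of the 4742. A gene enters this set through any 1 array, and replicate 3 had the most genes above the controls, 4370 against 3783 and 3855. Many of the 100, such as Mmp3 and Saa3, were above the controls on replicate 3 only. These shares therefore describe the set, and nothing more is read from them.

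The widest spread belonged to Eif2s3y, given above, with an SD of 4.15. Gdpd3, a phosphodiesterase gene of lysophospholipid metabolism, followed with 12.10, 11.47 and 4.96. Mmp3, the matrix-degrading protease stromelysin, read 5.68, 8.61 and 13.13, and Timp1, an inhibitor of such proteases, read 8.61, 11.66 and 14.30. Both were lowest on replicate 1 and highest on replicate 3, and Gdpd3 was lowest on replicate 3. Saa3, an acute phase protein gene, read 5.66, 8.10 and 12.44, and Lcn2, an iron-trapping protein gene, read 6.59, 8.06 and 11.48. Serpina3n, a protease inhibitor of the acute phase, read 12.96, 15.58 and 17.88. At Saa3 replicate 3 alone was above the controls, whereas Serpina3n was above them on each array.

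The macrophage list gave 2 of the 40, Trem2 and C1qc, and the other genes of this paragraph are grouped by their known roles and not by a list. Clec12a, an inhibitory receptor of myeloid cells, read 5.15, 7.62 and 10.86, and Fcer1g, the signalling chain of antibody receptors, read 8.49, 9.26 and 13.61. Ccl12, a chemokine that draws monocytes, read 6.98, 7.38 and 12.13. Replicates 1 and 2 lay within 1 log2 unit of each other at Fcer1g and Ccl12. Cd180 and its partner Ly86, which restrain innate signalling, read 4.74, 7.65 and 9.85 and 8.59, 9.98 and 13.61. Cd72, a receptor of B cells and macrophages, read 6.90, 6.59 and 11.50, although the B cell list was near the controls. Gpr34, Ms4a6d, Cd53, Bst1, Tmem176a, Trem2 and C1qc were highest on replicate 3 as well, as were the transporter genes Slc39a8 and Slc7a8, the ceramide synthase gene Cers6 and Anxa8, Baiap2l1, Gabra3, Hjurp, Fgf1, Upk3b and the terminal complement gene C7. Their signals on replicate 3 ran from 9.61 for Gabra3 to 14.19 for Tmem176a.

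The genes of the 40 that were not highest on replicate 3 were few. Kcnip2, a subunit of the potassium channel that shapes repolarisation in mouse ventricle, read 12.05, 10.37 and 7.41, and Cdr1 read 9.05, 5.60 and 4.59. Like Gdpd3, both were highest on replicate 1. Cxcl13, a chemokine for B cells, read 7.25, 12.28 and 9.74, and Ccn3, a matricellular protein gene, read 7.86, 11.70 and 7.52, and these 2 were highest on replicate 2. The 40th gene, C7, had an SD of 2.31 and the 41st, Glipr1, 2.29.

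**Figure D4:**
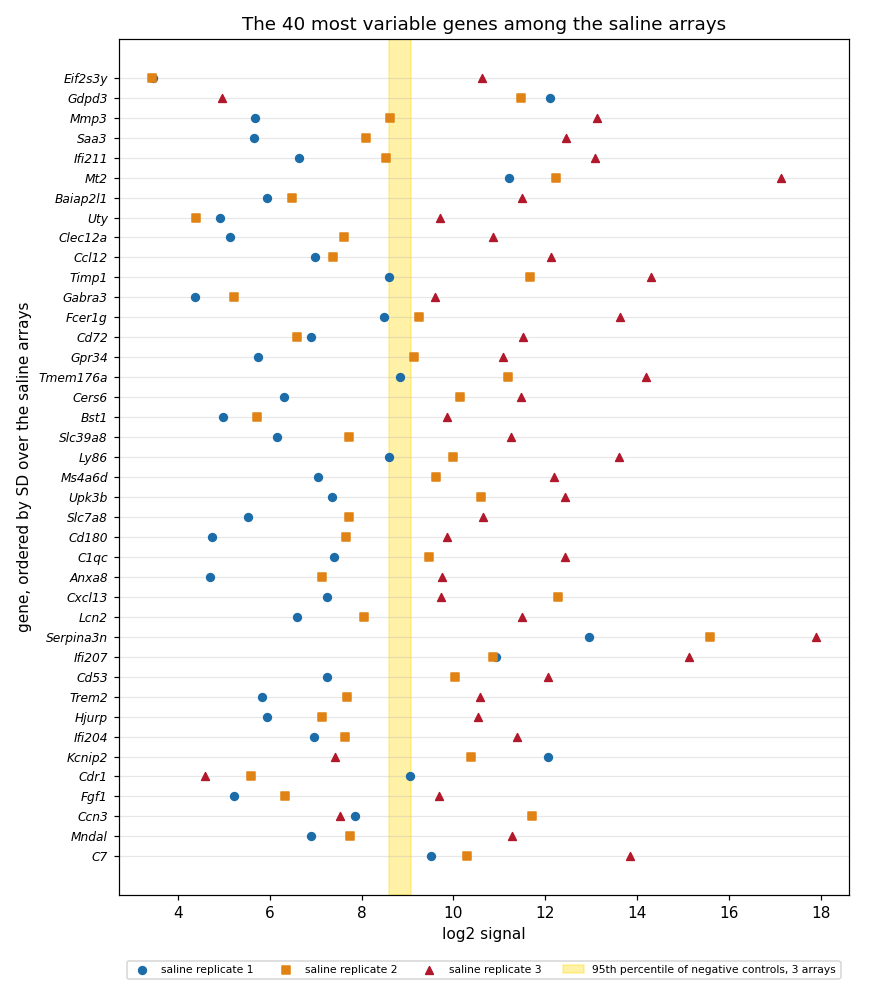
Log2 signal (horizontal axis) of the 40 genes with the largest SD (vertical axis, largest at the top), 1 point per saline array, with a yellow band at the controls' 95th percentile of 8.59 to 9.08. Replicate 3 is the rightmost point for 35 of the 40 genes, and Gdpd3, Kcnip2, Cdr1, Cxcl13 and Ccn3 are the exceptions.

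A group of 4 interferon-inducible genes of 1 chromosomal cluster were among the 40. They belong to the PYHIN family, whose members sense or bind DNA. Ifi211 read 6.64, 8.54 and 13.07, Ifi207 read 10.92, 10.85 and 15.12, Ifi204 read 6.97, 7.63 and 11.38, and Mndal read 6.90, 7.74 and 11.26. All 4 were highest on replicate 3, and replicates 1 and 2 were within 1 log2 unit of each other at all but Ifi211. Of 13 protein-coding genes between Aim2 and Ifi205 in the order of RefSeq's genes, 9 were measured. Of these 7 were highest on replicate 3, as were 35.4% of all genes and 87.5% of the 40 most variable. The 7 include the 4 by which the cluster was picked out, so nothing is read from this count. Ifi208, Ifi209 and Ifi214 among the 7 lay below the controls' level on every array. The genes are close relatives, and how far their probes tell them apart was not tested.

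Metallothioneins, small proteins that bind zinc and copper, gave a pair of neighbours with unlike spread. Mt2 read 11.20, 12.24 and 17.13, an SD of 3.16, whereas Mt1 read 16.27, 16.35 and 17.23. Replicate 3 was the highest array for both, and replicates 1 and 2 were nearly level at Mt1. A stretch of the Mt2 promoter is shown because the gene had the largest spread among the antioxidant genes. It lies at chr8:94172460-94172526 (plus strand, GRCm38.p6, RefSeq), with a match to the core of the metal response element, TGCGCNC, in capitals from 128 bases before the start.
Mt2: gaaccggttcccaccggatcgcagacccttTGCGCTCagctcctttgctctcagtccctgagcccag
These letters, sought on both strands, occurred at 20.5% of the starts of all genes and at 6 of 92 starts (6.52%) of the 100 most variable genes.

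Spi1, which encodes the myeloid transcription factor PU.1, was among the 100 most variable genes at 10.70, 12.23 and 15.05, and it was above the controls on all 3 arrays. It is named after its values were seen, as are the genes of the next sentence other than C1qc, Cd53 and Cd72. The letters GAGGAAGT, a form of the PU.1 binding motif, were found on either strand at 8 of 92 starts of the 100 most variable genes (8.70%), those of C1qc, Cd53, Cd72, Ctsc, Ctss, Hpgds, Phf11b and Pirb, at 581 starts of all genes (3.04%) and at 2 starts of the 100 brightest (1.98%). All 8 genes were highest on replicate 3, as were 89 of the 100 from which they come, so nothing particular to the motif is read from that. Starts were on hand for 77 of the 100 genes. The promoters of 4 of them are shown so that the motif can be read in its setting, each printed on its gene's strand from RefSeq, GRCm38.p6, with the motif or its reverse complement ACTTCCTC in capitals. The stretch of C1qc lies at chr4:136893072-136893139 (minus strand), with the capitals from 195 bases before the start. That of Cd72 lies at chr4:43454638-43454705 (minus strand), from 49 bases before the start. Those of Ctsc, at chr7:88277904-88277971 (plus strand), and Pirb, at chr7:3720465-3720532 (minus strand), have them from 151 and 120 bases before the start.
C1qc: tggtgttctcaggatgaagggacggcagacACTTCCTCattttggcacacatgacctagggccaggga
Cd72: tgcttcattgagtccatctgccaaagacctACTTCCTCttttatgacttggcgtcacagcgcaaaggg
Ctsc: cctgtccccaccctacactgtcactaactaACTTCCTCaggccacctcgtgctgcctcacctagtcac
Pirb: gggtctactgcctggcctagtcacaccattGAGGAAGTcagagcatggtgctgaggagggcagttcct
Ctsc, a lysosomal protease that activates granule enzymes, read 12.13, 14.06 and 16.56, and Pirb, an inhibitory receptor of myeloid cells, read 7.32, 7.30 and 10.98. Whether PU.1 binds at any of these letters in this tissue was not tested.

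Macrophage and metabolic genes lay on opposite sides of the difference between replicates 3 and 1. The median member of the macrophage list was 3.56 log2 units higher on replicate 3, and that of the complement list 3.67. The median member of the citrate cycle list differed by -1.10, of complex I by -0.88, of fatty acid use by -1.32 and of the cardiomyocyte list by -1.02. Between replicates 3 and 2 the median macrophage member differed by 1.80 and the median citrate cycle member by -0.90. The median over all genes was 0.13 for replicate 3 against 1 and -0.02 for replicate 3 against 2. Over the 4742 genes above the controls on at least 1 array these medians were 0.48 and 0.003. The Y-linked genes, the macrophage list and the muscle lists all differed between replicate 3 and the other two, and the part of any of them in the others was not tested.

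**Figure D5:**
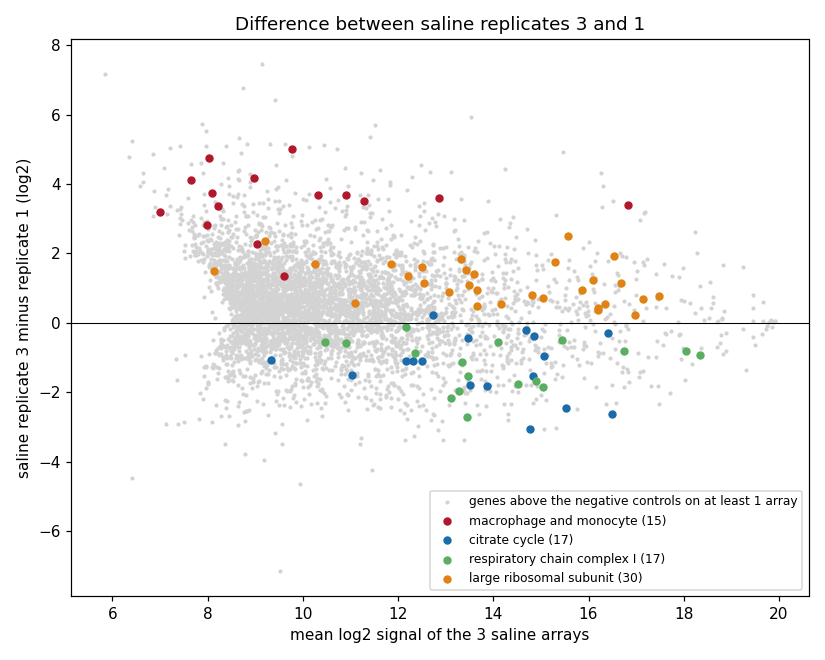
Difference in log2 signal between saline replicates 3 and 1 (vertical axis) against the mean over the 3 saline arrays (horizontal axis), 1 point per gene above the controls on at least 1 array, with the members of 4 lists coloured. The coloured macrophage genes lie above 0 and most citrate cycle and complex I genes below it.

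Of the 10 genes with the smallest SD among the 500 brightest, Tnnt2, Mb, Dcn, Myoz2, Nppa, Eef1a1, Slc25a4 and Serinc3 were among the 40 brightest, where the upper limit constrains the spread. The other two were Kcmf1, a ubiquitin ligase gene, at 14.72, 14.68 and 14.71, and Eif3h, a translation initiation factor gene, at 14.13, 14.03 and 14.07. The median SD was 0.41 over all genes and 0.52 over the 500 brightest.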

How the data were processed

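Signals came from the authors' deposited value table of log2 values, 1 for each probe set on each array. Per the submitters' processing notes the program was Affymetrix Expression Console. Not given in the sources used here are its version and how it treated background and scaled the arrays. That the scale is log2 was judged from the range of the numbers. Of 22206 gene rows, 19572 had 1 symbol in the platform annotation, none had several and 2634 had none. For 55 genes with several rows the row with the highest mean was kept. No value was rescaled or filtered before ranking, and no test was made, since the 3 saline arrays form 1 group. Means, sample SDs and percentiles were computed in Python 3.11.15 with numpy 2.4.6 and pandas 2.3.3, and the code was tested on simulated data. Of 706 listed genes 628 were measured.

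The genes named include the 40 brightest, the 40 most variable among genes above the controls on at least 1 array, and the 10 steadiest of the 500 brightest. Others were drawn from the cell type markers and from up to 6 brightest and 3 most variable members of each list. Only some of the markers and list members are named. A few genes, such as Spi1 and Apoe, were named after their values were seen. Predicted genes are counted, not named. The gene lists and this choice of arrays were made with earlier results of these data known. Alternatives tried were other levels of the controls, quantile normalisation, centring each array on its median, medians in place of means, the range in place of the SD, and leaving out each array. Array coordinates were not used, and promoter stretches are RefSeq's for GRCm38.p6.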

Additional observations from a re-analysis of the deposited data

How the results depend on the processing

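The ranking by brightness kept 97 to 100 of its 100 genes under other summaries and scalings, and 89 to 93 when 1 array was left out. The count of genes above the negative controls on all 3 arrays depended on the level: it was 3338 at the 95th percentile, 569 at the 99th, 6869 at the 75th and 7170 above the brightest background probe set, and 3434 to 3693 without 1 array. At the 99th percentile 17 of 20 cardiomyocyte markers, 7 of 15 fibroblast, 4 of 14 endothelial and 1 of 16 macrophage markers were above, and no T cell, B cell or natural killer marker was above at any of these levels. The count of genes with an SD above 1 was 816, 1628 with no filter and 379 among genes above the controls on all 3 arrays, and 365 to 1342 without 1 array. The 100 most variable genes shared 24 with those chosen among genes above the controls on all 3 arrays, and 25 to 90 when 1 array was left out. Spearman's rho across genes was 0.922 between replicates 1 and 2 and 0.909 between 1 and 3. Among genes above the controls Pearson's r was 0.940 between 1 and 2, 0.863 between 1 and 3 and 0.941 between 2 and 3. The median gene of replicate 1 was 0.23 below that of replicate 2 and 0.21 below that of replicate 3. Under quantile normalisation, and again under centring on the median, the sign of replicate 3 minus replicate 1 turned for 4 of the 52 lists, which included protein folding, the proteasome and the clock under both. The cause of these shifts was not tested. No paired analysis was possible because 1 group of arrays is described and nothing is compared between groups.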

Other observations

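Rows without a gene symbol held signal too. Of these 2634 rows, 361 (13.7%) stood above the 95th percentile of the negative controls on all 3 saline arrays, 26 were brighter than the 100th gene and 6 were at the upper limit on all 3. The annotation used pairs them with no name, so they are given as counts only.

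The Y-linked signal of saline replicate 3 was shared by part of the series. Eif2s3y read 3.48, 14.59 and 3.66 on the 3 iCM arrays and 4.05, 11.37 and 11.46 on the 3 iCM-Ex arrays, so that 4 of 9 arrays were above 10 and 5 below 5, although all mice were labelled female.

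The brightest hypoxia-responsive gene listed, Egln3, an oxygen-sensing hydroxylase gene, read 15.58, 14.27 and 13.24 on saline replicates 1, 2 and 3, while Hif1a, a transcription factor whose protein such enzymes mark for decay, read 13.54, 14.33 and 14.96. Of the 12 genes of this list 6 were above the controls on all 3 arrays, against 17.1% of all genes. The sign of the list's difference between replicates 3 and 1 turned under quantile normalisation.

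Neighbouring muscle of other kinds was looked for in the same lists. On saline replicate 2 the fast skeletal muscle markers averaged 5.92, against 4.76 and 4.82 on replicates 1 and 3, with Mylpf at 3.44, 6.83 and 3.93 and Myh2 at 5.29, 7.09 and 4.31. None of these values was above the controls.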
